A study of Mus musculus with 12 samples.

Results

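Transcripts of 4 simple-epithelium keratins (Krt7, Krt8, Krt18 and Krt19) and of vimentin (Vim) were followed through adipogenic differentiation of 3T3-L1 cells, an established mouse preadipocyte line that turns into fat-storing adipocytes under hormonal inducers. The 5 genes were taken by symbol from a table of 11022 genes, and all 5 had a row. They had been chosen by their known behaviour in these same libraries, so their levels and fold changes are given as a description, with no test. The 12 libraries fell into 4 groups of 3. Undifferentiated cells were kept in 10% calf serum without inducers. Regular differentiation took place in 10% fetal bovine serum. Its first step of 2 days combined rosiglitazone (2 µM), dexamethasone (1 µM), isobutylmethylxanthine (0.5 mM) and insulin (1 µg/mL), its next 2 days kept insulin alone, and maintenance medium followed. The groups called WT CM and KO CM had the same steps, each mixed in equal parts with filtered medium conditioned by WEP breast cancer cells, either p53 WT or p53 KO. All sequenced 3T3-L1 cells were labelled genotype WT, since the p53 knockout was made in WEP cells only. Serum changed together with the inducers, and dilution of the medium changed together with conditioning, so neither can be told apart from the group.

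Intermediate filaments are rope-like polymers that give a cell mechanical strength. Keratin filaments form only when a type II keratin (Krt7, Krt8) pairs with a type I keratin (Krt18, Krt19), and Krt8 with Krt18 is the pair typical of simple epithelia. Vimentin, a type III protein, polymerises on its own, is the main filament of mesenchymal cells including fibroblasts and preadipocytes, and in fat cells forms a cage around the lipid droplet.

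RNA was read as MARS-seq libraries, which sequence the 3′ end of each transcript and count molecular identifiers (UMIs), so a molecule counts once whatever its length and levels were not divided by length. Totals ran from 987496 UMIs in a KO CM library to 2589045 in a regular library. Levels are given in CPM, the count as a share of the library's scaled total in parts per 1e6, where totals were scaled between libraries by the trimmed mean of M-values (TMM). The labels do not say that libraries of a group came from separate cultures, so every spread below may be technical. WT CM replicate 3 stood apart by a chi-square per degree of freedom, taken over genes above a minimum count in the pair of libraries compared. It was 5.54 and 5.24 against its fellow libraries, while every other pair within a group lay between 1.38 and 2.54. Fold changes of the 5 genes that involve WT CM are therefore also given without it. The labelled cell state was plain in the adipocyte markers. All 10 tested rose from undifferentiated to regular cells at an adjusted p under 0.05 by edgeR's quasi-likelihood test. Of all 9378 genes tested, 57.6% passed in that comparison, in either direction. The summed level of the markers ran from 142 to 176 CPM in undifferentiated libraries and from 31682 to 33728 CPM in regular ones. The same sum was 19935 to 20210 CPM in WT CM and 9849 to 11331 CPM in KO CM. Against regular cells, 9 of the 10 fell by that test in WT CM and all 10 in KO CM. Of all genes tested, 32.6% and 43.2% passed there, in either direction. In bulk RNA, fewer cells of a type and less RNA per cell cannot be told apart.

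In GRCm38 with the GENCODE M21 annotation, 3 of the keratin genes lie on chromosome 15. Krt7 is at chr15:101411043-101430313 on the plus strand and has 9 exons in its principal transcript. Krt8, at chr15:101996698-102004482 on the minus strand with 9 exons, and Krt18, at chr15:102028180-102032027 on the plus strand with 7 exons, are transcribed away from each other. Krt19 lies apart, at chr11:100140810-100148665 on the minus strand with 6 exons, and Vim is at chr2:13573927-13582826 on the plus strand with 9 exons. RefSeq start sites of Krt8 and Krt18 are 23874 bases apart. The promoters of these neighbours, whose levels were highest in regular cells, are shown with that of Krt7, whose level was highest in KO CM. Each runs from 250 bases before the start site to 50 bases from it, 5′ to 3′ on the strand of its gene, from RefSeq on GRCm38.p6. Capitals mark every match to the TATA box, spelled TATAAA, or the GC box, spelled GGGCGG, on either strand; overlapping matches run together.
Krt8 promoter, chr15:102004293-102004592, minus strand: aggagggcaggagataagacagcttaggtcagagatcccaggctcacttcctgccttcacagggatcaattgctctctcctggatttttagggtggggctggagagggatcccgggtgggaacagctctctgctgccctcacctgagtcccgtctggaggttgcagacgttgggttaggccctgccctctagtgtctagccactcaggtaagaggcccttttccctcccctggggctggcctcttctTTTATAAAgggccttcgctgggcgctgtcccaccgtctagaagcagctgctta
Krt18 promoter, chr15:102027966-102028265, plus strand: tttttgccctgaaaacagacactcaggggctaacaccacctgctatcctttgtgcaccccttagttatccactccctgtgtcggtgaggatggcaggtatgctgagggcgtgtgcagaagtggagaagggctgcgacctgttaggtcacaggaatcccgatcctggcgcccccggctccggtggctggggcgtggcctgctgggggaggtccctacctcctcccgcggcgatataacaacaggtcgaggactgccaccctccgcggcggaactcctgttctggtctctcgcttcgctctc
Krt7 promoter, chr15:101412153-101412452, plus strand: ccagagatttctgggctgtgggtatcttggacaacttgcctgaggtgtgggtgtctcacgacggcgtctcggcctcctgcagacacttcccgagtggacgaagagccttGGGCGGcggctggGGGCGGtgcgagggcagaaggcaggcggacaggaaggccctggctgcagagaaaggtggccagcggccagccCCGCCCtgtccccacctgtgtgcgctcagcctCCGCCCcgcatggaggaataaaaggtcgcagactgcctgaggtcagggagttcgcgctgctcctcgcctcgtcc

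The Krt8 window held TATAAA on both strands, in overlapping letters at positions -3 and -1 from the annotated start. No TATAAA or GGGCGG lay in the Krt18 window. Krt7 had 4 GC boxes, at -141 and -128 on its own strand and at -56 and -24 on the opposite one. The Vim window (chr2:13574061-13574360, plus strand) had 1 TATAAA, at -32. Of 32851 RefSeq promoter windows of the same length, 13.6% held TATAAA and 35.7% held GGGCGG. The motifs TGANTCA (AP-1), TTGCNNAA (C/EBP) and CACGTG (E-box) were also searched on both strands and were in none of these 4 windows, against 7.81%, 10.8% and 7.15% of all windows. GC content was 58.0% for Krt8, 61.3% for Krt18, 66.3% for Krt7 and 59.3% for Vim, above the median window at 52.7%. These are matches of letters and say nothing of binding.

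Krt8, the type II member of the simple-epithelial pair, was highest after regular differentiation and much lower in the other 3 groups. It had 2, 3 and 1 UMIs in undifferentiated replicates 1 to 3, 18, 69 and 32 in regular replicates, 6, 7 and 5 in WT CM and 7, 0 and 3 in KO CM. Scaled levels were 1.13, 2.12 and 0.512 CPM in undifferentiated cells, 16.4, 26.8 and 19.0 CPM in regular cells, 4.07, 4.49 and 2.19 CPM in WT CM and 6.91, 0 and 2.34 CPM in KO CM. The regular libraries were all above every other library, and KO CM replicates spread across the ranges of both undifferentiated and WT CM cells. In the KO CM library without a Krt8 UMI, 3 counts would be 3.33 CPM, a floor that covers counting error only. Means were 1.25 ± 0.809, 20.7 ± 5.41, 3.59 ± 1.22 and 3.08 ± 3.51 CPM (SD, n = 3 each) in the order undifferentiated, regular, WT CM and KO CM. The log2 fold change of regular against undifferentiated cells was 4.12 ± 0.48 (SE), a 17.4-fold higher level. Against regular cells it was -2.64 ± 0.38 in WT CM and -2.76 ± 0.45 in KO CM. Between KO CM and WT CM it was -0.12 ± 0.63, and it turned to 0.35 without KO CM replicate 2 and reached -1.27 without KO CM replicate 1, so these 10 and 18 UMIs give no direction.

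Krt18, the type I partner, had the same place of highest level and, unlike Krt8, a lower level in KO CM than in WT CM in every library. Its UMIs were 8, 3 and 3 in undifferentiated cells, 30, 66 and 57 in regular cells, 15, 15 and 15 in WT CM and 6, 4 and 5 in KO CM. In CPM these were 4.52, 2.12 and 1.54, then 27.3, 25.6 and 33.9, then 10.2, 9.62 and 6.58, and last 5.92, 4.43 and 3.91. Regular libraries stood above all others, WT CM came next, and KO CM overlapped with undifferentiated cells. Group means were 2.72 ± 1.58, 28.9 ± 4.35, 8.79 ± 1.94 and 4.75 ± 1.04 CPM (SD, n = 3) in the same order. The log2 fold change was 3.36 ± 0.33 for regular against undifferentiated cells, a 10.3-fold higher level. It was -1.74 ± 0.26 for WT CM and -2.59 ± 0.34 for KO CM against regular cells, and -0.85 ± 0.42 for KO CM against WT CM. Against undifferentiated cells, WT CM was higher by 1.62 ± 0.42, with no overlap, and KO CM by 0.77 ± 0.53, with overlap. The last 300 bases of the Krt18 transcript hold a stretch of at least 60 bases with at least 80% identity to 4 processed pseudogenes. These have no row in the table, and their part in the Krt18 counts was not tested.

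Krt7, the other type II keratin, followed another order: it was low with and without regular differentiation and highest in KO CM. Its UMIs were 5, 2 and 5 in undifferentiated cells, 1, 6 and 7 in regular cells, 13, 14 and 14 in WT CM and 10, 11 and 17 in KO CM. The levels were 2.83, 1.41 and 2.56 CPM in undifferentiated cells and 0.910, 2.33 and 4.16 CPM in regular cells. They were 8.82, 8.98 and 6.14 CPM in WT CM and 9.87, 12.2 and 13.3 CPM in KO CM. Undifferentiated and regular libraries overlapped, both lay below every WT CM library, and every WT CM library lay below every KO CM one. Regular against undifferentiated cells gave a log2 fold change of 0.16 ± 0.58, which turned to -0.29 without regular replicate 3. WT CM against regular cells gave 1.55 ± 0.45, KO CM against regular cells 2.15 ± 0.45, and KO CM against WT CM 0.60 ± 0.36. The last 300 bases of the Krt7 transcript hold a stretch of at least 60 bases with at least 80% identity to transcripts of 451 other genes, 260 of them in the table, so its 3′ counts are uncertain. An antisense gene, Gm671, overlaps the Krt7 locus and a long noncoding RNA, Gm36026, that of Krt8. Strand use in the counting is not stated by the labels or file headers, so reads of these overlapping genes cannot be told apart.

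Krt19, the smallest keratin and a type I partner of Krt7 and Krt8, was highest in WT CM. It had 1, 0 and 3 UMIs in undifferentiated cells, 2, 3 and 5 in regular cells, 14, 10 and 13 in WT CM and 2, 1 and 2 in KO CM. In CPM, these were 0.565, 0 and 1.54, then 1.82, 1.16 and 2.97, then 9.50, 6.41 and 5.71, and last 1.97, 1.11 and 1.56. The 3 WT CM libraries were above all 9 others, which overlapped with each other across groups. In the undifferentiated library at 0 UMIs, 3 counts would be 2.12 CPM. Krt19 did not pass the filter on low counts that the other 4 genes passed, so its fold changes come from the same model without that filter. WT CM was higher than regular cells by 1.86 ± 0.54 on the log2 scale and higher than undifferentiated cells by 3.01 ± 0.65. KO CM against WT CM gave -2.12 ± 0.65, a 4.35-fold lower level, while KO CM against regular cells gave -0.26 ± 0.82 with overlapping libraries. The 3′ end of Krt19 shares 98 bases at 86.7% identity with Krt13, so a misassigned read is possible between them. Krt13 had 14, 20 and 12 UMIs in undifferentiated cells and 4, 12 and 9 in regular cells. In WT CM it had 6, 4 and 17 UMIs and in KO CM 2, 1 and 1, and misassignment was not tested.

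**Figure D1:**
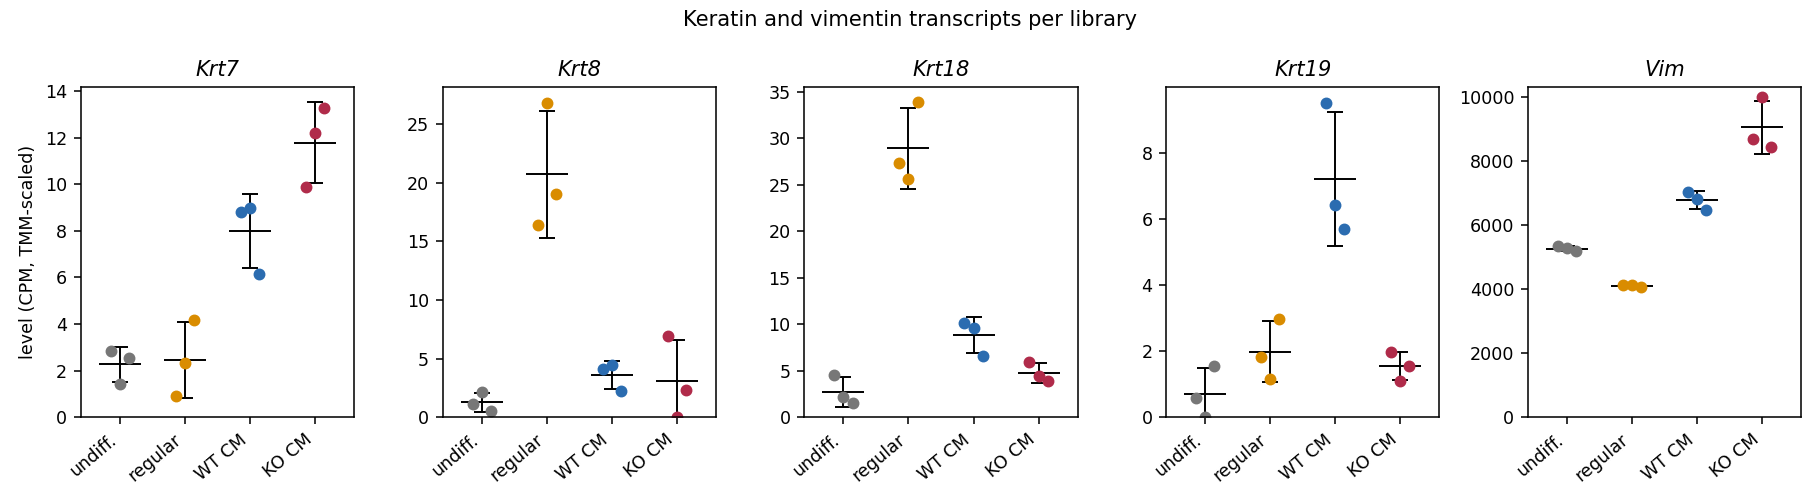
Level of each gene in CPM (TMM-scaled, linear axis from 0, a different scale per panel) in each of the 12 libraries; points are libraries, the long dash is the group mean and the bar 1 SD (n = 3). Krt8 and Krt18 peak in regular cells, Krt19 in WT CM, and Krt7 and Vim in KO CM, where Vim reaches 9063 CPM on average.

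The 4 keratins thus differed in make-up as well as in total. Their summed level was 6.94 ± 1.84 CPM in undifferentiated cells, 54.1 ± 6.96 CPM in regular cells, 27.6 ± 6.21 CPM in WT CM and 21.2 ± 3.47 CPM in KO CM (SD, n = 3). Krt8 and Krt18 together made up 272 of 296 UMIs of the 4 keratins in regular cells, or 91.9% (95% exact binomial interval 88.2 to 94.7%, counting error only). The pair was 20 of 36 UMIs, or 55.6%, in undifferentiated cells (interval 38.1 to 72.1%). In WT CM it was 63 of 141, or 44.7% (interval 36.3 to 53.3%), and in KO CM 25 of 68, or 36.8% (interval 25.4 to 49.3%). The share per library lay between 88.1% and 94.1% in regular cells, 42.6% and 47.8% in WT CM, 25.0% and 52.0% in KO CM and 33.3% and 75.0% in undifferentiated cells. Regular libraries were above all others, and the remaining groups overlapped. Krt7 was the most counted of these 4 keratins in KO CM, with 55.9% of their UMIs, against 33.3% in undifferentiated cells, 29.1% in WT CM and 4.73% in regular cells. Krt80, outside the 4, was at a higher level in KO CM than Krt7. Krt19 took 26.2% in WT CM and 7.35% in KO CM. Within the pair, Krt8 gave 43.8% of Krt8 and Krt18 UMIs in regular cells (exact binomial interval 37.8 to 49.9%) and 28.6% in WT CM (interval 17.9 to 41.3%), intervals that overlap.

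**Figure D2:**
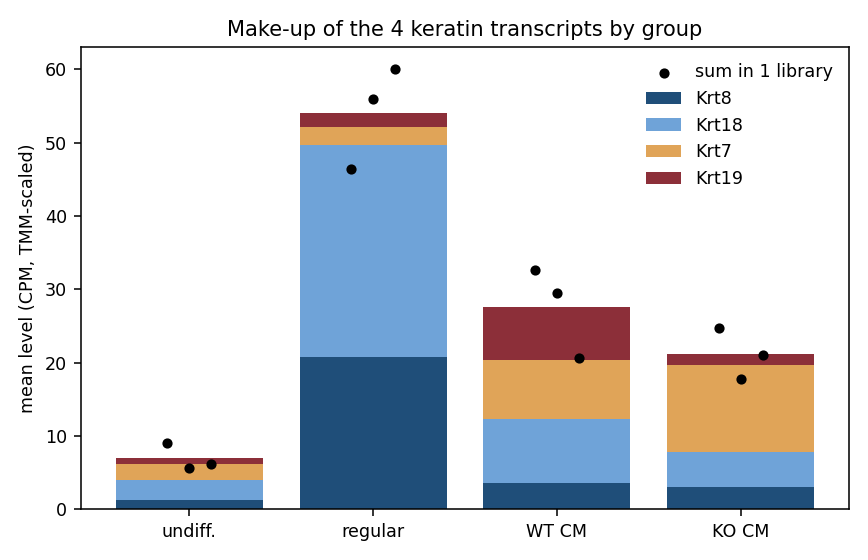
Mean level of the 4 keratin transcripts in CPM (TMM-scaled), stacked by gene, in each group; black points are the sum in 1 library. The regular bar, at 54.1 CPM, is mostly Krt8 and Krt18. Krt7 and Krt19 together fill most of the WT CM bar. Krt7 alone fills most of the KO CM bar, where Krt19 is at 1.55 CPM.

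Vimentin was among the most abundant transcripts in every group, at a level far above the keratins, and its order was regular, undifferentiated, WT CM, KO CM from low to high. Its UMIs were 9443, 7481 and 10162 in undifferentiated cells, 4553, 10611 and 6840 in regular cells, 10368, 10638 and 14761 in WT CM and 8826, 9038 and 10830 in KO CM. Scaled, undifferentiated libraries had 5337, 5277 and 5200 CPM and regular libraries 4144, 4119 and 4063 CPM. WT CM libraries had 7038, 6821 and 6478 CPM and KO CM libraries 8709, 10018 and 8462 CPM. No neighbours in that order overlapped, and the same holds when libraries are scaled by their totals. Group means of 5271 ± 68.7, 4109 ± 41.7, 6779 ± 282 and 9063 ± 837 CPM (SD, n = 3) put Vim at rank 4, 8, 4 and 3 of all 11022 genes. It took 0.589%, 0.411%, 0.658% and 0.836% of all UMIs. The log2 fold change was -0.36 ± 0.07 for regular against undifferentiated cells and 0.72 ± 0.07 and 1.14 ± 0.07 for WT CM and KO CM against regular cells. KO CM against WT CM gave 0.42 ± 0.07, a 1.34-fold higher level. Against undifferentiated cells, WT CM was higher by 0.36 ± 0.07 and KO CM by 0.78 ± 0.07, values of 0.16 and 0.50 when libraries were scaled by total counts. For each UMI of the 4 keratins there were 791 ± 179 Vim UMIs in undifferentiated cells, 76.9 ± 11.1 in regular cells, 254 ± 52.8 in WT CM and 440 ± 111 in KO CM (SD, n = 3). Of the 11 keratin genes with a row, the others are left out of this ratio, which was not computed over all keratins. Among them, Krt10, Krt13 and Krt15 averaged 9.81, 9.39 and 11.3 CPM in undifferentiated cells and 10.6, 4.55 and 3.97 CPM in regular cells.

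Set against all genes, these ranges were common. Regular and undifferentiated libraries did not overlap for 63.2% of the 9378 genes tested, and 57.6% passed an adjusted p of 0.05 by edgeR's quasi-likelihood test. Krt8, Krt18 and Vim, 3 of the 5, did not overlap there. Between WT CM and regular cells, 43.1% of tested genes did not overlap and 32.6% were called, and each of the 5 was without overlap. Between KO CM and regular cells it was 51.5% and 43.2%, with 4 of the 5 apart. Between KO CM and WT CM it was 26.3% and 12.5%, with 4 of the 5 apart. The last background rests on 1174 called genes, which became 756 without KO CM replicate 3. As the genes were chosen on these contrasts, nothing is read from the counts of the 5. The 4 comparisons share libraries, so their values stand side by side only. The lists of related genes and of markers were also drawn up with earlier results of these data known. Their counts and shares called are therefore a description, and no set test was run.

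Leaving out WT CM replicate 3 kept every direction of the 5 genes, though not of uncalled genes such as Krt13 and Lmnb2 in WT CM against regular cells. WT CM against regular cells then gave log2 fold changes of 1.74 for Krt7, -2.31 for Krt8, -1.53 for Krt18, 2.03 for Krt19 and 0.75 for Vim. KO CM against WT CM gave 0.41 for Krt7, -0.44 for Krt8, -1.06 for Krt18, -2.29 for Krt19 and 0.39 for Vim. WT CM against undifferentiated cells gave 1.90 for Krt7, 1.81 for Krt8, 1.83 for Krt18, 3.17 for Krt19 and 0.40 for Vim. The authors' deposited table gives, for KO CM against WT CM with the sign turned to match, 0.59 for Krt7, -0.14 for Krt8, -0.87 for Krt18, -2.19 for Krt19 and 0.43 for Vim.

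**Figure D3:**
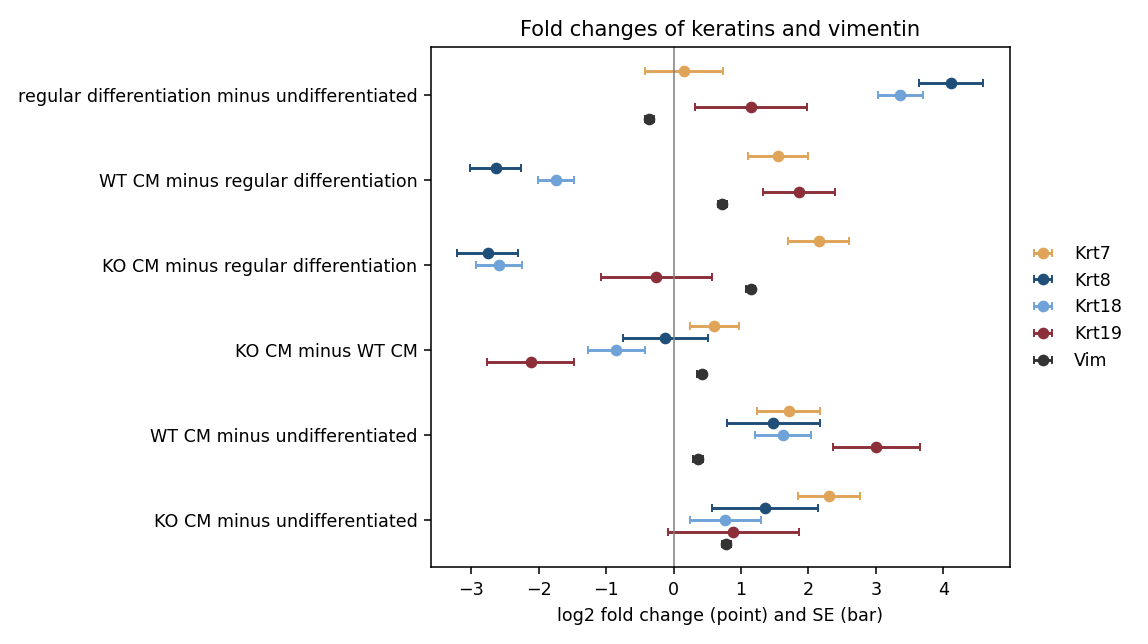
Log2 fold change (point) and its SE (bar) of the 5 genes in the 6 pairs of groups, from a model of all 12 libraries. Krt8 and Krt18 lie right of 0 in regular against undifferentiated cells and left of 0 in both CM groups against regular cells, where Krt7 and Vim lie right of 0.

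Other intermediate filament genes did not move as a block. Of 58 listed, 13 had a row and 11 were tested. In regular against undifferentiated cells 2 rose and 6 fell, with a median log2 fold change of -0.67 beside -0.01 over all genes. In WT CM against regular cells 3 rose and 2 fell (median 0.17, all genes 0.01), in KO CM against regular cells 3 rose and 3 fell (median -0.19, all genes about 0), and in KO CM against WT CM 0 rose and 1 fell, Krt36 (median 0.03, all genes 0.01). The share of the list called was 72.7%, 45.5%, 54.5% and 9.09%, beside 57.6%, 32.6%, 43.2% and 12.5% of all genes tested. Krt36, a hair-type type I keratin, went from 0.359 ± 0.312 CPM in undifferentiated to 8.30 ± 3.74 CPM in regular cells (log2 fold change 4.30 ± 0.66, adjusted p = 3.58e-07). It had 1, 0 and 1 UMIs in undifferentiated libraries. In WT CM it was at 10.5 ± 2.29 CPM, and in KO CM at 3.36 ± 2.02 CPM, lower than WT CM by a log2 fold change of -1.68 ± 0.49 (adjusted p = 0.0157). Krt15, a type I keratin of basal epidermis and hair follicle, fell from 11.3 ± 3.07 to 3.97 ± 1.94 CPM on regular differentiation and was at 0.813 ± 0.483 CPM in WT CM and 0.630 ± 0.570 CPM in KO CM. Its log2 fold changes were -1.34 ± 0.39, then -2.43 ± 0.68 and -2.67 ± 0.83 against regular cells, with adjusted p of 0.00296, 0.00394 and 0.00765. Krt80, a type II keratin, went the other way in conditioned medium, from 2.15 ± 0.508 CPM in regular cells to 17.2 ± 4.91 CPM in WT CM and 18.1 ± 2.23 CPM in KO CM. These were log2 fold changes of 2.98 ± 0.39 and 3.07 ± 0.41 (adjusted p = 1.97e-08 and 2.20e-08). The Krt80 calls held when any 1 library was left out. Both CM calls of Krt15 were lost without regular replicate 2 (adjusted p = 0.122 and 0.108). Krt36 in KO CM against WT CM lost its call without WT CM replicate 1, KO CM replicate 1 or KO CM replicate 3 (adjusted p = 0.0649, 0.0547 and 0.165).

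Krt13, a type I keratin of internal stratified epithelia, fell from 9.39 ± 4.18 CPM in undifferentiated to 4.55 ± 0.858 CPM in regular cells (adjusted p = 0.0440) and to 1.29 ± 0.616 CPM in KO CM (adjusted p = 0.0342 against regular cells). The first call was lost without undifferentiated replicate 2 or any 1 regular replicate (adjusted p = 0.0645 to 0.303). The second was lost without regular replicate 2 or 3 or KO CM replicate 2 or 3 (adjusted p = 0.0728 to 0.149). Krt10, a suprabasal type I keratin, was between 9.11 and 10.6 CPM on average in all groups and passed no test. Krt9 and Krt79 were not tested. Both had 0 UMIs in undifferentiated libraries, where 3 counts over the group would be 0.584 CPM, and 7, 7 and 3 (Krt9) or 3, 7 and 5 (Krt79) in regular ones. In WT CM they had 2, 1 and 1 and 3, 1 and 3 UMIs, and in KO CM 0, 0 and 0 and 1, 0 and 1.

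Among the non-keratin filaments, synemin (Synm), a partner that co-polymerises with vimentin and desmin, rose from 1.40 ± 1.24 CPM in regular cells to 6.29 ± 1.85 CPM in WT CM and 11.5 ± 5.15 CPM in KO CM. The log2 fold changes were 2.45 ± 0.64 (adjusted p = 0.00217) and 3.30 ± 0.61 (adjusted p = 1.87e-05), on 2, 0 and 4 UMIs in regular libraries; the first was not called without regular replicate 2 (adjusted p = 0.0661). Desmin (Des), the muscle type III filament, rose from 30.1 ± 6.49 to 61.4 ± 13.1 CPM on regular differentiation (log2 fold change 1.01 ± 0.18, adjusted p = 3.34e-06) and did not pass the test in the other comparisons. Syncoilin (Sync), a desmin-binding filament protein, fell by 1.297 ± 0.48 on regular differentiation (adjusted p = 0.0183). The nuclear lamins fell as well. Lamin A/C (Lmna) went from 822 ± 31.8 to 556 ± 8.11 CPM (log2 fold change -0.56 ± 0.09, adjusted p = 6.19e-07). It was higher in WT CM and KO CM than in regular cells by 0.27 ± 0.09 and 0.32 ± 0.09 (adjusted p = 0.0153 and 0.00386). The WT CM call of Lmna was lost with DESeq2 (adjusted p = 0.0745). The KO CM call was lost in edgeR with libraries scaled by total counts (adjusted p = 0.0592). Lmnb1 fell by 1.07 ± 0.26 on regular differentiation (adjusted p = 0.000505), and again by 0.96 ± 0.34 from regular cells to WT CM (adjusted p = 0.0253). Lmnb2 fell by 0.57 ± 0.25 on regular differentiation (adjusted p = 0.0463). Several of these calls were lost when 1 library was left out. Lmnb1 in WT CM lost its call without WT CM replicate 1 or 3 or regular replicate 1 or 2 (adjusted p = 0.0565 to 0.0992), and Lmna there without WT CM replicate 1 or regular replicate 2 (adjusted p = 0.169 and 0.0563). On regular differentiation Lmnb2 was lost without undifferentiated replicate 1 or 2 or regular replicate 3 (adjusted p = 0.0692 to 0.251), and Sync without undifferentiated replicate 2 or regular replicate 2 or 3 (adjusted p = 0.0602 to 0.0876). In number, 1 of the 11 genes was called in WT CM and 3 in KO CM against regular cells without regular replicate 2, and 3 in WT CM without WT CM replicate 1. In KO CM against WT CM 0 were called without WT CM replicate 1, KO CM replicate 1 or KO CM replicate 3, and 2 without WT CM replicate 2.

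**Figure D4:**
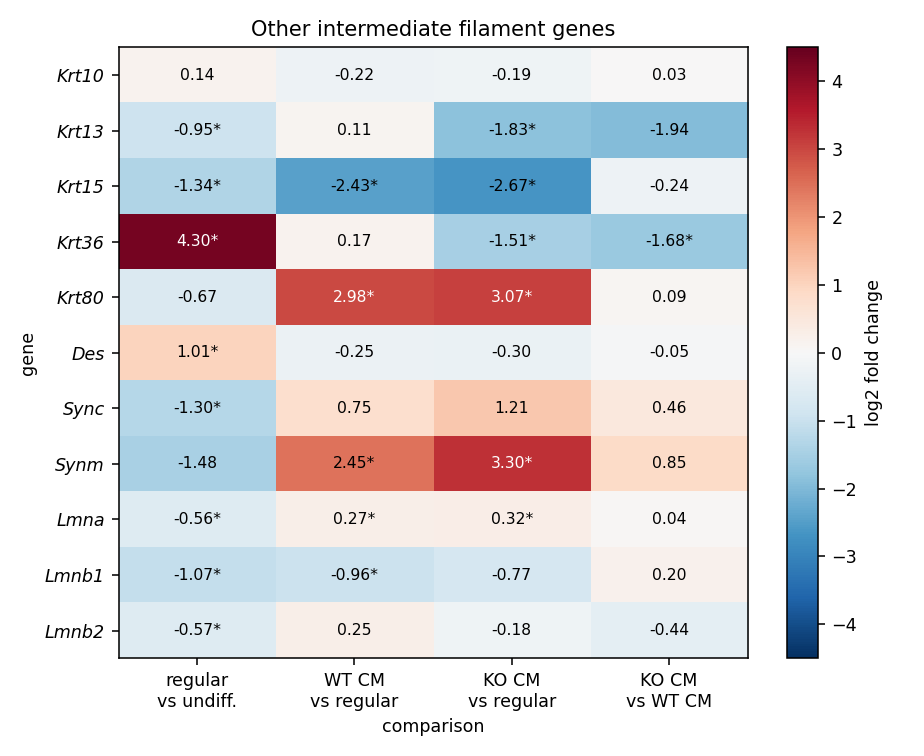
Log2 fold change of the 11 other intermediate filament genes tested (rows) in 4 comparisons (columns), red for higher and blue for lower in the first-named group; an asterisk marks an adjusted p under 0.05 by edgeR's quasi-likelihood test. Krt36 is highest at 4.30 in regular against undifferentiated cells, and Krt80 and Synm are the strongest in both CM columns against regular cells.

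Genes that link filaments to junctions and to other parts of the cytoskeleton, or regulate them, were also counted. Of 36 listed, 26 had a row and 21 were tested. On regular differentiation 4 rose and 12 fell (median log2 fold change -0.55). In WT CM against regular cells 8 rose and 0 fell (median 0.23), in KO CM against regular cells 9 rose and 1 fell (median 0.48), and in KO CM against WT CM 4 rose and 0 fell (median 0.19), or 2 genes called in all without WT CM replicate 2. The share of the list called was 76.2%, 38.1%, 47.6% and 19.0% in these 4 comparisons, beside 57.6%, 32.6%, 43.2% and 12.5% of all genes tested. Plectin (Plec), the cytolinker that ties vimentin and keratin filaments to actin, microtubules and junctions, was at 173 ± 8.09 CPM in regular cells, 520 ± 31.0 CPM in WT CM and 756 ± 51.3 CPM in KO CM. Its log2 fold changes were 1.59 ± 0.09 and 2.13 ± 0.09 against regular cells (adjusted p = 1.50e-19 and 2.28e-24) and 0.54 ± 0.08 for KO CM against WT CM (adjusted p = 4.54e-06). Lima1, an actin-bundling protein, rose by 0.89 ± 0.11 in WT CM and 1.26 ± 0.11 in KO CM against regular cells (adjusted p = 3.80e-09 and 2.39e-13). Cryab, a small heat shock protein that binds desmin and vimentin filaments, was at 177 ± 4.76 CPM in WT CM and 272 ± 18.7 CPM in KO CM (log2 fold change 0.62 ± 0.09, adjusted p = 2.66e-06). On regular differentiation Ezr (ezrin, which joins actin to the membrane) fell from 133 ± 12.6 to 36.4 ± 7.68 CPM (adjusted p = 1.30e-15). Hspb1, another filament-binding heat shock protein, rose from 0.547 ± 0.566 to 3.97 ± 1.93 CPM (adjusted p = 0.00302). Its undifferentiated mean lay below 0.584 CPM, the level of 3 counts over that group, so the size of the rise is uncertain.

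Regulators of epithelial-mesenchymal transition and mesenchymal genes, of which 19 of 20 listed were tested, fell on regular differentiation in 14 cases and rose in 3 (median log2 fold change -1.02). Against regular cells, 12 rose and 1 fell in WT CM (median 0.47) and 13 rose and 2 fell in KO CM (median 0.72). In KO CM against WT CM 6 rose and 1 fell (median 0.18). The calls in WT CM against regular cells came to 8 without regular replicate 2, and those in KO CM against WT CM to 4 without WT CM replicate 1 or KO CM replicate 3. With all libraries, 89.5%, 68.4%, 78.9% and 36.8% of the list were called in the 4 comparisons, against the shares of all genes given above. Fibronectin (Fn1) was at 4073 ± 98.1 CPM in undifferentiated cells, 781 ± 28.5 CPM in regular cells, 2742 ± 228 CPM in WT CM and 3240 ± 235 CPM in KO CM. Its log2 fold changes were -2.38 ± 0.08 on regular differentiation (adjusted p = 1.03e-28) and 1.81 ± 0.08 and 2.05 ± 0.08 in the CM groups (adjusted p = 1.23e-23 and 5.86e-26). S100a4, a calcium-binding protein of fibroblasts, was at 2918 ± 491, 616 ± 41.2, 2524 ± 96.6 and 3339 ± 186 CPM in the same order (adjusted p = 3.25e-24, 4.68e-22 and 7.53e-25 for the same comparisons). In KO CM against WT CM the transcription factor Twist2 rose by 0.58 ± 0.14 (adjusted p = 0.00262) and the growth factor Tgfb1 fell by 0.57 ± 0.15 (adjusted p = 0.00634, or 0.0635 without KO CM replicate 3). Neither was called with libraries thinned at random to the smallest total (adjusted p = 0.0634 and 0.191). In that draw 3 genes of the list were called in this comparison.

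Most actin and tubulin genes fell on regular differentiation and were higher in conditioned medium. Of 21 actin, tubulin and actin-regulator genes tested, 0 rose and 16 fell on regular differentiation (median log2 fold change -0.88). Then 13 rose and 2 fell in WT CM against regular cells (median 0.51), 13 rose and 2 fell in KO CM against regular cells (median 0.73), and 5 rose and 1 fell in KO CM against WT CM (median 0.21), where 3 in all were called without KO CM replicate 3. With all libraries, 76.2%, 71.4%, 71.4% and 28.6% of the list were called, beside 57.6%, 32.6%, 43.2% and 12.5% of all genes tested. Tuba4a, an alpha-tubulin, went from 63.4 ± 12.7 to 10.6 ± 1.47 CPM on regular differentiation (adjusted p = 3.99e-14). Tubb6, a beta-tubulin, went from 236 ± 30.0 to 48.0 ± 5.20 CPM (adjusted p = 7.05e-21), and was at 121 ± 15.0 CPM in WT CM and 126 ± 14.5 CPM in KO CM (adjusted p = 1.01e-11 and 8.08e-12 against regular cells). Tubb5, another beta-tubulin, rose by 1.01 ± 0.08 in WT CM against regular cells (adjusted p = 9.27e-14). Tmsb10, an actin-monomer-binding thymosin, was at 231 ± 7.34 CPM in regular cells and 628 ± 10.6 CPM in KO CM (log2 fold change 1.44 ± 0.30, adjusted p = 0.00417). Actb (beta-actin) was at 3376 ± 320 CPM in WT CM and 4746 ± 410 CPM in KO CM, a log2 fold change of 0.49 ± 0.09 (adjusted p = 0.000297). Pfn1, which loads actin monomers, differed by 0.52 ± 0.10 in the same comparison (adjusted p = 0.000270).

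Markers of other cell types were read beside the keratins, and their part in the keratin levels was not tested. Of 30 epithelial markers, 2 had a row in the table, in which every gene reaches at least 6 UMIs in some library, and these were Grhl1 and Muc1. The other 28, among them Epcam and Cdh1, were not analysed here. The summed level of Grhl1 and Muc1 was 0.565 to 3.07 CPM in undifferentiated, 16.0 to 22.9 CPM in regular, 9.50 to 14.1 CPM in WT CM and 7.89 to 11.1 CPM in KO CM libraries. Grhl1, an epithelial transcription factor, had 0, 2 and 1 UMIs in undifferentiated and 19, 55 and 23 in regular libraries, a log2 fold change of 4.75 ± 0.54 (adjusted p = 2.41e-10). It was lower than in regular cells in WT CM (-1.30 ± 0.32, adjusted p = 0.00137) and in KO CM (-2.22 ± 0.43, adjusted p = 2.88e-05). Muc1, a membrane mucin, had 1, 1 and 5 UMIs in undifferentiated, 0, 4 and 4 in regular, 6, 5 and 11 in WT CM and 5, 4 and 10 in KO CM libraries.

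Of 14 mesothelial markers, 4 had a row, with summed levels of 131 to 157 CPM in undifferentiated, 373 to 415 CPM in regular, 627 to 722 CPM in WT CM and 672 to 773 CPM in KO CM libraries. On regular differentiation 1 of the 4 rose and 3 fell (median log2 fold change -1.88). In WT CM against regular cells 3 rose and 0 fell, in KO CM against regular cells 2 rose and 1 fell, and in KO CM against WT CM 1 rose and 1 fell. The share of the 4 called was 100%, 75%, 75% and 50%, beside 57.6%, 32.6%, 43.2% and 12.5% of all genes tested. The one that rose on regular differentiation and carried most of the sum there was Cldn15, a claudin, at 376 ± 25.5 CPM in regular and 53.2 ± 13.1 CPM in undifferentiated cells (adjusted p = 3.20e-24). It was at 396 ± 24.1 CPM in WT CM and 273 ± 20.8 CPM in KO CM. Slpi, a secreted protease inhibitor, fell from 38.6 ± 0.836 CPM in undifferentiated to 10.1 ± 3.65 CPM in regular cells (adjusted p = 5.77e-09), and was at 260 ± 41.5 CPM in WT CM and 404 ± 56.9 CPM in KO CM. Mesothelin (Msln) fell from 43.9 ± 8.09 to 12.3 ± 2.57 CPM on regular differentiation (adjusted p = 4.16e-10) and rose in WT CM and KO CM against regular cells (adjusted p = 7.06e-05 and 2.55e-06). Bnc1 fell from 7.70 ± 0.878 CPM to 0 UMIs in every regular library (adjusted p = 3.07e-07), where 3 counts over the group would be 0.560 CPM. Smooth muscle and myofibroblast markers, which include Des, fell in 10 of 12 cases on regular differentiation and rose in 2. Against regular cells, 7 rose and 0 fell in WT CM and 9 rose and 1 fell in KO CM. In KO CM against WT CM 2 rose and 0 fell. The share of this list called was 100%, 58.3%, 83.3% and 16.7%, beside the same shares of all genes tested. The sum of these markers was 3449 to 3591 CPM in undifferentiated, 699 to 756 CPM in regular, 1866 to 1945 CPM in WT CM and 2543 to 2670 CPM in KO CM libraries, led by Cnn2 and Tpm1 in KO CM. Preadipocyte markers, led by Ly6a and Thy1 there, summed to 1119 to 1127, 282 to 345, 1234 to 1319 and 1675 to 1840 CPM in the same order. Of 10 macrophage and endothelial markers, 3 had a row, with sums of 14.8 to 20.3, 18.2 to 27.9, 48.7 to 60.4 and 78.7 to 103 CPM, mostly from Cd14.

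Genes whose levels most resembled each member across the 12 libraries were found by Pearson's r of log2 CPM among genes with a mean of at least 10 CPM, as a description, since the libraries share 4 groups. For Krt8 these were Mtfr1l (0.965), Ecsit (0.948) and Shpk (0.933). For Krt18 they were Cyb5a (0.981), Gramd1b (0.978) and 2300009A05Rik (0.977), and for Krt7 Adamts2 (0.976), Cd14 (0.968) and Zfp217 (0.967). Krt19 was least well matched, with Uap1 (0.874), Pdpk1 (0.872) and Ficd (0.869). Vim was closest to Rps21 (0.993), then to Cyb5r3 (0.982) and Clip3 (0.981). Rps21 is a ribosomal protein gene whose count may be uncertain for processed copies, which were not searched for here. The levels show the shared order: Cyb5a was at 168, 643, 330 and 254 CPM in undifferentiated, regular, WT CM and KO CM cells, and Clip3 at 105, 52.2, 175 and 265 CPM.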

How the data were processed

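RNA from 12 libraries of 3T3-L1 cells (4 groups of 3) was read by MARS-seq from 30 ng of RNA each, per the labels' protocols. Tools in the submitters' processing notes are HTSeq, cutadapt and DESeq2 (no versions), with build mm10. No aligner or annotation is given in the sources used here. Raw UMI counts and the authors' log2 fold changes come from 1 deposited table, as its column names show per the file headers; 24 further per-sample columns were not used. In R 4.3.3 with edgeR 4.0.16 (limma 3.58.1), filterByExpr kept 9378 of 11022 genes. After TMM scaling, all 12 libraries entered 1 quasi-likelihood fit on group, and p-values were adjusted by Benjamini-Hochberg over all tested genes, at 0.05. The code was tested on simulated data. DESeq2 1.42.0, other scalings and filters, thinning and leaving out libraries were tried as alternatives. The members and gene lists were chosen with earlier results of these data known. Named were the 5 members, all tested filament genes, and the 2 called genes of largest change per related list and comparison. The 3 genes most like each member were also named. Naming within the marker lists followed no single rule: all 4 mesothelial genes with a row were named, and no adipocyte marker.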

Additional observations from a re-analysis of the deposited data

How the results depend on the processing

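Depth limits the 4 keratins, whose groups hold 4 to 153 UMIs, so single UMIs move their fold changes. No fold change of the 5 genes whose libraries did not overlap changed its sign under the alternatives run. All values that follow are log2 fold changes unless called counts, and the cause of a move was not tested. With libraries scaled by total counts, Vim was at -0.52 in regular against undifferentiated cells, 1.03 in KO CM against regular cells, and 0.16 and 0.50 in WT CM and KO CM against undifferentiated cells, and 2 filament linkers were called in KO CM against WT CM. Under the same scaling Krt10 turned to -0.020 on regular differentiation, and Krt10 and Lmna to -0.044 and -0.031 in KO CM against WT CM, none of them called. Without a filter on low counts, Vim was at -0.42 in regular and 0.31 in WT CM against undifferentiated cells. With DESeq2 these were -0.38 and 0.30, and with only the groups compared the second was 0.32. DESeq2 called 3 other filament genes and 5 linkers in WT CM against regular cells and 0 other filament genes in KO CM against WT CM. DESeq2 called 786 genes in KO CM against WT CM, where edgeR called 1174. With only the groups compared, 3 other filament genes were called in WT CM and 2 in KO CM against regular cells. Thinned to the smallest total in 1 random draw, Krt8 was at 2.69 in regular, 0.88 in WT CM and 0.26 in KO CM against undifferentiated cells, Krt7 at 1.37 in WT CM against undifferentiated cells, and Vim at -0.41 on regular differentiation. In that draw WT CM against regular cells gave -1.81 for Krt8 and -1.06 for Krt18, KO CM against regular cells -2.24 for Krt18, and KO CM against WT CM -1.18 for Krt18 and -1.62 for Krt19. It called 756 genes and 0 other filament genes in KO CM against WT CM, 3 other filament genes in each further comparison and 5 linkers in WT CM against regular cells. It turned Lmnb2 to 0.018 on regular differentiation and -0.14 in WT CM against regular cells, and Des and Lmnb1 to 0.24 and -0.0045 in KO CM against WT CM.

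Leaving out each library in turn, regular against undifferentiated cells gave -0.29 (without regular replicate 3) to 0.34 for Krt7, 3.66 to 4.62 for Krt8, 2.98 to 3.89 for Krt18, 0.71 to 2.27 for Krt19, -0.43 to -0.35 for Vim and -0.057 to 0.26 for Krt10. WT CM against undifferentiated cells gave 1.02 to 1.98 for Krt8, 1.23 to 2.15 for Krt18, 2.58 to 4.13 for Krt19 and 0.29 to 0.40 for Vim, and KO CM against the same 0.22 to 1.86 for Krt8, 0.38 to 1.2996 for Krt18 and 0.46 to 2.01 for Krt19. WT CM against regular cells gave 1.47 to 2.30 for Krt19, -0.49 to 0.38 for Krt13, -0.028 to 0.60 for Krt36 and -0.074 to 0.51 for Lmnb2, and 1 to 5 other filament genes called. KO CM against regular cells gave -3.91 to -2.28 for Krt8, -0.65 to 0.18 for Krt19 and -0.39 to 0.071 for Lmnb2, and 3 to 7 other filament genes called. KO CM against WT CM gave -1.27 to 0.35 for Krt8, -0.15 to 0.030 for Des, -0.23 to 0.20 for Krt10, -0.70 to 0.26 for Krt15, -0.12 to 0.33 for Krt80, -0.031 to 0.15 for Lmna and -0.25 to 0.42 for Lmnb1. In that comparison 756 to 1059 genes, 0 to 2 other filament genes and 2 to 4 linkers were called. Replicate numbers share only a number: deviations of same-numbered libraries correlated between -0.050 and 0.053. With the number as a replicate block, 5373, 3042, 4058 and 1220 genes were called in the 4 comparisons, against 5404, 3055, 4053 and 1174.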
